A study of Homo sapiens with 12 samples.

Results

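Reh cells given PMA (phorbol-12-myristate 13-acetate), called Reh+PMA, were set against the 3 classical Hodgkin lymphoma (cHL) lines KM-H2, L1236 and L428. The question was which genes still separated the stimulated B-precursor leukaemia cells from Hodgkin/Reed-Sternberg (HRS) cells, and which had reached or passed the level of the Hodgkin lines. The comparison took 8 of the 12 RNA-Seq libraries of the series by line and treatment alone, 2 of Reh+PMA and 2 of each Hodgkin line. Reh is a pro-B lymphoblastic leukaemia line, treated here with PMA at 2 ng/ml, and the Hodgkin lines were untreated. The 2 libraries of untreated Reh served as the starting level, and the 2 of the Burkitt's lymphoma line Namalwa entered the shared estimate of the spread and the filter on low values. Some tested genes passed that filter only through Namalwa, among them VPREB1, MS4A1 and IL16 of the lists used here. The libraries were made from rRNA-depleted total RNA with a strand-specific kit. How long PMA acted before these libraries were made is not given in the sources used here. Reh+PMA is 1 line with 2 libraries, and no source says that duplicates came from separate cultures, so the p-values measure the spread between duplicate libraries, which may be technical. The Hodgkin lines were grown in IMDM and Reh in RPMI, so medium, line and disease cannot be told apart.

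PMA stands in for diacylglycerol, the lipid messenger that recruits protein kinase C (PKC) and the RasGRP exchange factors to membranes. In lymphocytes this switches on the ERK cascade, whose early products include the FOS, JUN and EGR factors, and through BCL10 and MALT1 it switches on NF-κB. HRS cells descend from B cells but have shut down most of the B-cell programme, and they carry lasting NF-κB, AP-1 and JAK-STAT activity, the surface receptor CD30 and a rich output of cytokines.

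Values were gene-level FPKM, and differences are on the log2(FPKM + 1) scale, Reh+PMA minus the mean of the 3 Hodgkin lines. The standard error (SE) of a difference rests on the means of 2 treated and 6 Hodgkin libraries and on the spread fitted over all 12 libraries. A gene was called higher or lower where limma gave a Benjamini-Hochberg adjusted p below 0.05, the difference was at least 1, and both treated libraries lay beyond all 6 Hodgkin libraries. The 12 libraries held 10835 to 12115 genes at 1 FPKM or more. Small non-coding RNAs and histone genes took 30.6% to 65.5% of the summed FPKM, more in the second than in the first library of every Hodgkin line. Spearman's rank correlation of the 14679 tested genes was 0.973 between the Reh+PMA libraries and 0.927 to 0.934 within the Hodgkin lines. Across them, Reh+PMA correlated with the Hodgkin libraries at 0.671 to 0.702 and with untreated Reh at 0.852 to 0.862, while untreated Reh correlated with the Hodgkin libraries at 0.685 to 0.741.

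Defining markers were checked against the labels. TNFRSF8 (chr1:12123360-12204264, hg19), which encodes CD30, lay between 19.1 and 63.7 FPKM in the 6 Hodgkin libraries (median 29.5) and at 0.0189 and 0.0178 in Reh+PMA. VPREB1, a surrogate light chain gene of early B cells, was listed at 0 in every Reh library but at 11.4 and 7.89 FPKM in Namalwa, while its partner IGLL1 was present at 39.9 and 69.7 FPKM in Reh+PMA. A listed 0 can be a failed estimate in these files, since CD99 was listed at 0 in all 12 libraries, although 13 housekeeping genes were at 0 in none.

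Of 14679 tested genes, 2005 (13.7%) were higher and 2071 (14.1%) lower in Reh+PMA than in the Hodgkin lines. The median difference over all tested genes was -0.11 (log2). When the 6 Hodgkin libraries were taken as 1 group with the line as a random block, the spread between Hodgkin lines counted. This left 709 genes higher and 445 lower, with untreated Reh and Reh+PMA as separate blocks. All 709 and 445 were among those called above, which is no separate support, since the differences and the position rule were the same. Position alone, with no test, put 3023 genes (20.6%) above and 2980 (20.3%) below all 6 Hodgkin libraries. Against single lines, limma called 2677 genes (18.2%) higher and 3174 (21.6%) lower than KM-H2, 2449 (16.7%) and 2767 (18.9%) against L1236, and 2571 (17.5%) and 2858 (19.5%) against L428. At the edge of the position rule stood TMPO, called higher by 0.00337 on the log2 scale between the nearest libraries, and GPRIN1, left out with a gap of -0.00323.

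**Figure D1:**
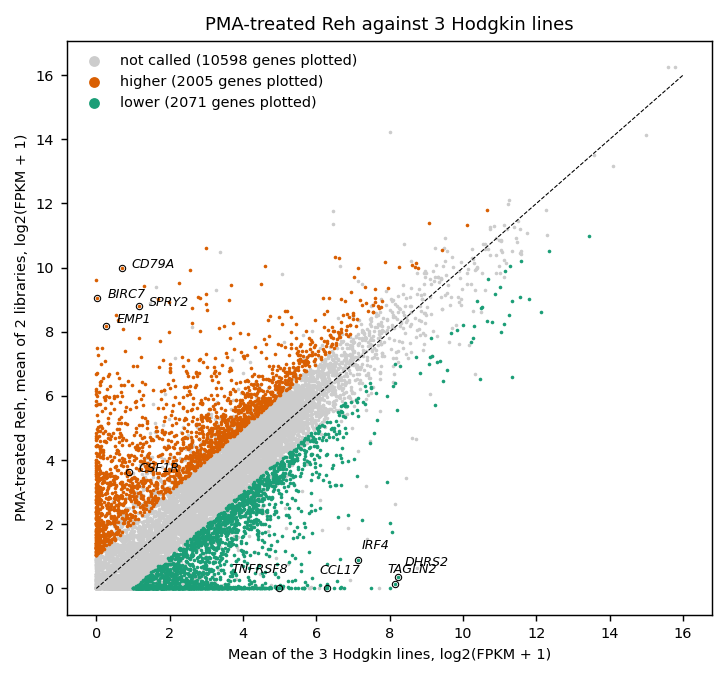
Each point is a gene, with the mean of the 3 Hodgkin lines on the x axis and the mean of the 2 Reh+PMA libraries on the y axis, both as log2(FPKM + 1), and the dashed line marks equal levels. Orange points are the 2005 genes called higher and green points the 2071 called lower in Reh+PMA, with CD79A and BIRC7 near the y axis and TAGLN2, DHRS2 and CCL17 near the x axis.

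The genes that stood farthest above the Hodgkin range were of 2 kinds, some that untreated Reh already expressed and some that appeared with PMA. Of the 15 genes with the widest gap, 10 lay at least 1 above all 6 Hodgkin libraries in untreated Reh as well. CD79A (chr19:42381349-42385439, hg19), a signalling chain of the B-cell receptor, was at 946.6 and 1102 FPKM in Reh+PMA, at 336 and 429 in untreated Reh, and at 2.55 or less in the Hodgkin libraries. The treated values did not overlap with either group, and the difference from the Hodgkin lines was 9.30 ± 0.42 (SE; adjusted p 2.59e-07). BIRC7 (chr20:61867235-61871847, hg19), an inhibitor of apoptosis, was at 513 and 549.5 FPKM in Reh+PMA, 20.3 and 32.4 in untreated Reh, and listed at 0 in 5 of the 6 Hodgkin libraries, with 0.0378 in the other. CD52, a lymphocyte surface glycoprotein, was at 508 and 261 FPKM against at most 1.59, and the growth factor MDK at 273 and 185 against at most 1.59.

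The PMA-dependent members were low or listed at 0 in untreated Reh and in the Hodgkin lines alike. EMP1 (chr12:13349657-13372875, hg19), a tetraspan membrane protein gene, was at 523 and 160.4 FPKM in Reh+PMA, 0.078 and 0.157 in untreated Reh, and 0 to 0.537 in the Hodgkin libraries (median 0.161). Its difference from the Hodgkin lines was 7.92 ± 0.35 (SE; adjusted p 2.52e-07). TM4SF1 (chr3:149086809-149095479, hg19), another tetraspan surface protein gene, was at 291 and 111 FPKM in Reh+PMA, listed at 0 in both untreated libraries and in 5 of 6 Hodgkin libraries, and at 0.057 in the sixth. For both genes the first treated library was well above the second. HBEGF, a ligand of the epidermal growth factor receptor, reached 160.9 and 115 FPKM from 3.03 and 1.61 in untreated Reh, with at most 0.544 in the Hodgkin lines. Of the 15 genes, 9 were higher in Reh+PMA than in untreated Reh by limma at an adjusted p below 0.05 and a difference of at least 1, and MDFI was lower. The 15 were chosen for high values in the same treated libraries, so this count and the calls with the line as a block below are a description only. The others of the 15 were TAGLN3, KCNJ16, NPY, GABRA4, DDIT4L, CCL4, MDFI and APP, with differences from the Hodgkin lines of 6.17 to 7.32, and all 15 stayed called with the line as a block (highest adjusted p 0.00210). NPY and MDFI were listed at 0 in all 6 Hodgkin libraries, so their fitted differences depend on the added 1.

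The 15 genes farthest below the Hodgkin range were low or listed at 0 in Reh before and after PMA. TAGLN2, which encodes an actin-binding protein, was at 0.054 and 0.153 FPKM in Reh+PMA, 0.169 and 0.174 in untreated Reh, and 216 to 439.7 in the Hodgkin libraries (median 264). The difference was -7.99 ± 0.21 (SE; adjusted p 2.29e-08). IRF4 (chr6:391739-411443, hg19), a transcription factor of activated B cells and plasma cells, was at 0.702 and 1.02 FPKM in Reh+PMA against 74.8 to 194 (median 146.5), and at 1.17 and 0.6001 in untreated Reh. IL1R2, a decoy receptor for interleukin-1, was at 0.153 and 0.179 FPKM against 64.8 to 166, and SCD, a fatty acid desaturase, at 0 and 0.012 against 68.2 to 166. GTSF1 (chr12:54849734-54867386, hg19), a germline small-RNA pathway gene, was listed at 0 in both treated libraries and lay between 42.7 and 173 in the Hodgkin lines. MARCKS, a substrate of PKC, was also listed at 0 in both and lay between 22.6 and 97.3. The other 9 were DHRS2, PCBD1, ANXA1, LSP1, MAGEB2, BASP1, COL9A2, MTX2 and PARVB. None of the 15 was higher in Reh+PMA than in untreated Reh by limma, COL9A2 was lower, and all 15 stayed called with the line as a block (highest adjusted p 0.00326). These 15 were chosen for low values in the same treated libraries, so these counts are a description only. MAGEB2 belongs to a family of related genes, and the counting may have split reads that they share.

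**Figure D2:**
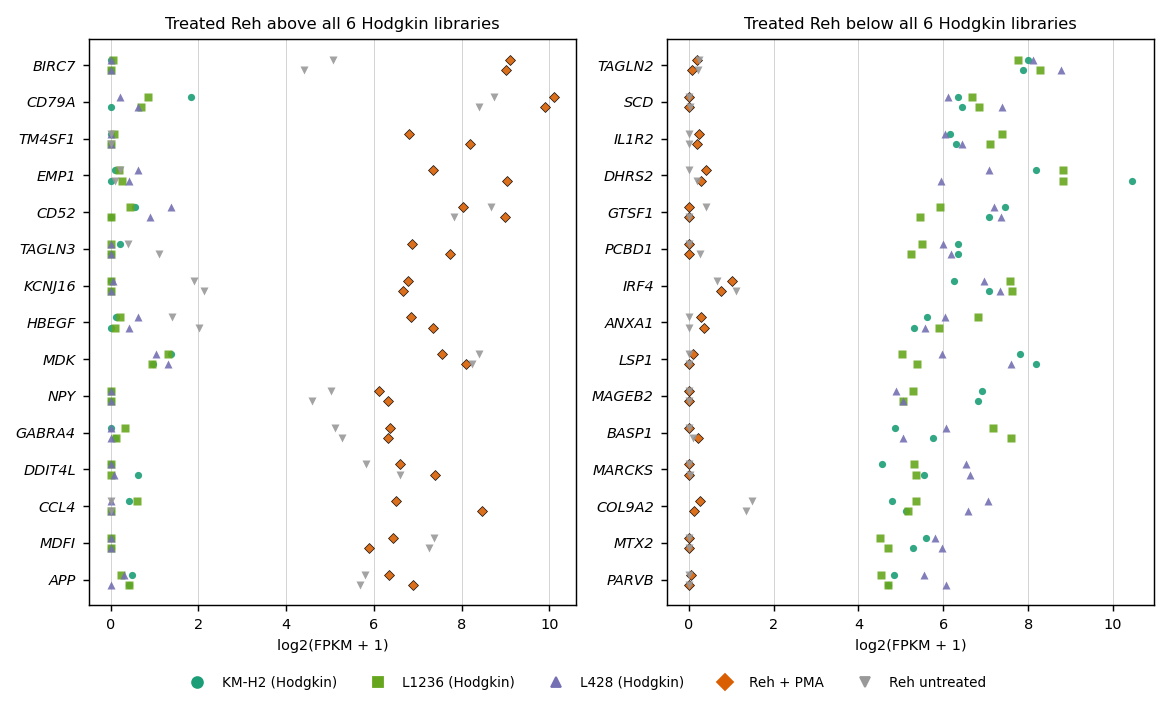
The x axes give log2(FPKM + 1) in each library for the 15 genes with the widest gap above (left) and below (right) the Hodgkin range, with 2 libraries for each of KM-H2, L1236, L428, Reh+PMA and untreated Reh. Both treated libraries lie beyond all 6 Hodgkin libraries in every row, and for EMP1, TM4SF1 and CCL4 the untreated Reh points lie with the Hodgkin points instead.

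Some genes of the PKC machinery itself were called. Of 20 tested genes of PKC and diacylglycerol signalling, 7 were higher in Reh+PMA (among them BCL10, PRKCB, PRKCH, PRKD2, PRKD3 and RASGRP2) and 3 lower (PRKCA, RASGRP1 and RASGRP3), with a median difference of 0.18, where 13.7% of all tested genes were higher and 14.1% lower. With the line as a block 6 and 1 were called, against 4.83% and 3.03% of all tested genes. PRKCB, the PKC isoform that couples the B-cell receptor to NF-κB, was at 37.0 and 32.8 FPKM in Reh+PMA, 33.9 and 39.2 in untreated Reh, and 0 to 3.57 in the Hodgkin libraries. PRKCA was the other way round, at 2.27 and 3.95 FPKM in Reh+PMA against 13.04 to 29.5. BCL10, an adaptor between PKC and NF-κB, was at 34.9 and 25.1 FPKM against 5.88 to 10.99 in the Hodgkin lines and 6.47 and 6.95 in untreated Reh. MALT1, a protease that acts with BCL10, overlapped with the Hodgkin range at 30.8 and 40.6 FPKM, since L1236 held 64.2 and 83.3.

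Many early response factors were above the Hodgkin range. Of 23 tested AP-1 and immediate early factors, 15 were higher than in the Hodgkin lines and 3 lower, with a median difference of 2.04, against 13.7% and 14.1% of all tested genes. The line block left 10 and 2, against 4.83% and 3.03%. By limma 18 of the 23 were also higher in Reh+PMA than in untreated Reh, against 10.5% of all tested genes. EGR1, a zinc finger factor induced by ERK, was at 62.1 and 76.2 FPKM in Reh+PMA, 0.138 and 0.0349 in untreated Reh, and 0.0985 to 1.73 in the Hodgkin libraries (median 0.422). The groups did not overlap, and the difference was 5.45 ± 0.18 (SE; adjusted p 6.70e-08). FOSB was at 65.8 and 74.7 FPKM against 0.243 to 3.51, FOS at 62.7 and 44.5 against 1.03 to 5.84, and the nuclear receptor gene NR4A1 at 64.6 and 34.3 against 0.221 to 2.87. FOSL2 was at 60.4 and 33.7 FPKM against 0.208 to 1.82.

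Other members of the list lay within or below the Hodgkin range. BATF3 was at 3.06 and 3.66 FPKM in Reh+PMA against 31.9 to 394.9 in the Hodgkin libraries, with a difference of -5.13 ± 0.31 (SE; adjusted p 1.53e-06), and untreated Reh held 3.16 and 6.54. ATF3 was at 4.93 and 4.54 FPKM against 35.9 to 177. BATF was higher in Reh+PMA than in untreated Reh, 19.8 and 32.7 FPKM after 1.20 and 1.66, but stayed below the Hodgkin range of 69.4 to 134, a call that was lost with the line as a block (adjusted p = 0.105). JUNB reached the Hodgkin range, at 245 and 188 FPKM against 136 to 295 and 22.1 and 18.6 in untreated Reh. JUN lay at 13.7 and 5.51 FPKM against 11.2 to 128, with 1 treated library inside the range.

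**Figure D3:**
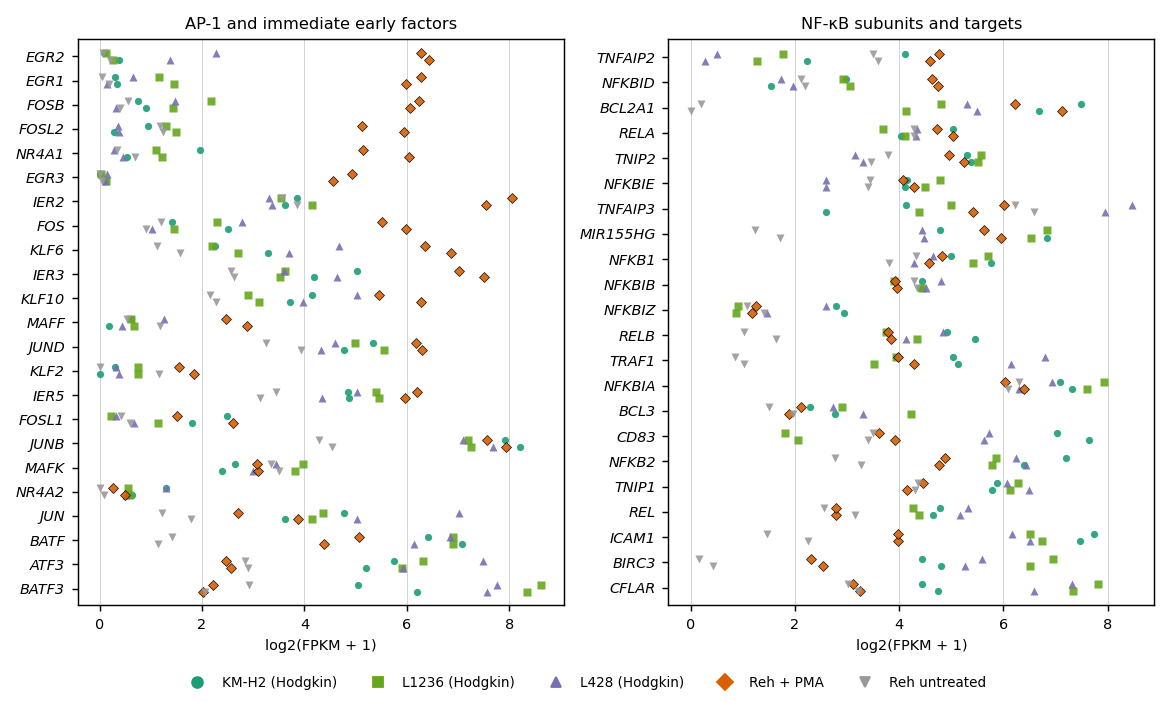
The x axes give log2(FPKM + 1) in each of 10 libraries for the 23 tested AP-1 and immediate early factors (left) and the 22 tested NF-κB subunits and targets (right), sorted by the difference from the Hodgkin lines. At the top left the Reh+PMA points (EGR2, EGR1 and FOSB) stand apart on the right of all others, whereas at the bottom right (CFLAR, BIRC3 and ICAM1) they stand to the left of all 6 Hodgkin points.

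Listed inhibitors of ERK signalling and of related kinase cascades were also above the Hodgkin level in part. Of 15 tested genes, 7 were higher (DUSP5, DUSP6, DUSP7, DUSP10, ERRFI1, SPRY2 and SPRY4) and 3 lower (DUSP2, DUSP16 and SPRED1), with a median difference of 1.03, against 13.7% and 14.1% of all tested genes. With the line as a block 3 and 1 were called, where the shares of all genes were 4.83% and 3.03%. SPRY2, a brake on receptor tyrosine kinase signalling, was at 491 and 406 FPKM in Reh+PMA, 5.47 and 6.97 in untreated Reh, listed at 0 in L1236, at 0.273 and 0.268 in KM-H2, and at 7.90 and 8.25 in L428. The difference was 7.63 ± 0.15 (SE; adjusted p 1.07e-08). DUSP6, an ERK phosphatase, was at 578 and 453 FPKM in Reh+PMA and 98.9 and 128 in untreated Reh. The Hodgkin lines split on DUSP6, with 0.492 to 4.09 FPKM in KM-H2 and L1236 but 142.5 and 184 in L428, and its call was lost with the line as a block (adjusted p = 0.0875). DUSP2 was at 0.343 and 0.203 FPKM in Reh+PMA against 6.55 to 35.2.

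NF-κB subunits and targets lay mostly within or below the Hodgkin range. Of 22 tested genes, 2 were higher (NFKBID and TNFAIP2) and 6 lower (BIRC3, CFLAR, ICAM1, NFKB2, REL and TNIP1), with a median difference of -0.74, where 13.7% and 14.1% of all tested genes were called. With the line as a block 0 and 4 were called, against 4.83% and 3.03%. By limma, 9 of the 22 were higher in Reh+PMA than in untreated Reh, and none was lower, against 10.5% and 11.8% of all tested genes. Of the 10 that untreated Reh held at least 1 below all 6 Hodgkin libraries, 6 stayed below and 4 came inside the range, where 88.4% of all 560 such genes stayed below and 9.82% came inside. ICAM1, an adhesion molecule, was at 14.8 FPKM in both treated libraries, 3.78 and 1.75 in untreated Reh, and 71.2 to 212 in the Hodgkin libraries. It was thus higher than in untreated Reh and still lower than in the Hodgkin lines, with a difference of -2.87 ± 0.22 (SE; adjusted p 7.14e-06). BIRC3, an inhibitor of apoptosis, was at 4.79 and 3.93 FPKM after 0.348 and 0.122, against 20.7 to 123. REL, the subunit whose gene is often gained in cHL, was at 5.88 and 5.87 FPKM in Reh+PMA against 18.3 to 39.2 and at 7.85 and 4.88 in untreated Reh. The genes that came inside the range were BCL2A1, RELB, MIR155HG and TRAF1. MIR155HG, the host transcript of miR-155, was at 61.2 and 48.5 FPKM against 20.8 to 114 and after 2.27 and 1.37, and RELB was at 13.3 and 12.8 FPKM against 12.5 to 42.8 and after 2.13 and 1.04.

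Cytokine and chemokine genes lay on both sides of the Hodgkin range. Of 34 tested cytokine and chemokine genes, 8 were higher in Reh+PMA and 17 lower, with a median difference of -1.79, beside 13.7% and 14.1% of all tested genes. The line block left 6 and 7, beside 4.83% and 3.03%. The 8 were CCL3, CCL4, CXCL8, IL1B, LTB, TGFB1, TNF and TNFSF4. CCL3, a chemokine for monocytes and T cells, was at 634 and 374 FPKM in Reh+PMA, listed at 0 in untreated Reh, at 18.0 and 24.6 in L1236 and at most 1.44 in the other Hodgkin libraries. CCL4 (chr17:34431220-34433014, hg19) was at 350.8 and 90.3 FPKM, listed at 0 in untreated Reh, and at most 0.506 in the Hodgkin libraries. CCL3 and CCL4 have near-identical copies, so their values are uncertain where the counting split such reads. CXCL8, the neutrophil chemokine interleukin-8, was at 73.8 and 47.8 FPKM in Reh+PMA, 0.732 and 0.884 in untreated Reh, and 0 to 0.785 in the Hodgkin libraries, with a difference of 5.69 ± 0.24 (SE; adjusted p 2.04e-07). TNF was present in every group, at 231 and 389 FPKM in Reh+PMA, 67.7 and 111 in untreated Reh and 15.7 to 64.5 in the Hodgkin libraries.

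The 17 lower genes included several chemokines known from HRS cells, whereas CCL22 was not called. CCL17 (chr16:57438679-57449975, hg19), which attracts CCR4-bearing T cells, was listed at 0 in both treated and both untreated Reh libraries, and lay between 12.6 and 705 FPKM in the Hodgkin lines (median 50.2). CXCL10 and IL32 were listed at 0 in Reh+PMA as well, against 5.58 to 621 and 15.99 to 111 FPKM. CCL5 was at 0.184 and 1.40 FPKM against 23.8 to 175, with a difference of -5.54 ± 0.29 (SE; adjusted p 6.55e-07), and it was lower than in untreated Reh, which held 6.38 and 3.68. IL6 was at 0.0643 and 0.0608 FPKM against 2.09 to 60.9, a call lost with the line as a block (adjusted p = 0.0997). LTA, lymphotoxin alpha, came inside the Hodgkin range, at 79.6 and 108.5 FPKM against 29.6 to 116 and after 6.80 and 10.6.

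The promoter windows of 4 genes are shown as examples chosen after their values were seen, with CXCL8, EMP1 and CSF1R called higher than in the Hodgkin lines and IL6 called lower. CSF1R is also the gene for which the authors had earlier reported a long terminal repeat acting as promoter in cHL. Each is the 250 bases before a RefSeq transcription start on GRCh38.p14, written on the gene's strand, with capitals at matches to TGANTCA (an AP-1 motif) or GGANTTTCC (a κB motif), both searched on both strands. The CXCL8 window is chr4:73740319-73740568 on the plus strand, with the AP-1 match starting 137 and the κB match 91 bases before the start. The EMP1 window is chr12:13196476-13196725 on the plus strand, with AP-1 matches starting at -175 and -48. The CSF1R window is chr5:150113366-150113615 on the minus strand, with an AP-1 match at -34, and a second RefSeq start of CSF1R, with the window chr5:150086555-150086804, held neither motif. The IL6 window is chr7:22726950-22727199 on the plus strand, with a κB match at -72.
CXCL8: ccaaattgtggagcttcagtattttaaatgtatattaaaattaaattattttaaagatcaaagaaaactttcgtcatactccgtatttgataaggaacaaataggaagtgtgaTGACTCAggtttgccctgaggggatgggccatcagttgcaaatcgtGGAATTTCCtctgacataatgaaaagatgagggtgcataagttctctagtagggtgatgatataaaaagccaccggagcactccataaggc
EMP1: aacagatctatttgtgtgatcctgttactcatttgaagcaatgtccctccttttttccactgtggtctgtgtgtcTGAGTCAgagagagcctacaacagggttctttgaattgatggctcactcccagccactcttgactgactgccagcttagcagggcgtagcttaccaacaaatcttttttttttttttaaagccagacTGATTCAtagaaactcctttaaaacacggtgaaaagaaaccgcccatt
CSF1R: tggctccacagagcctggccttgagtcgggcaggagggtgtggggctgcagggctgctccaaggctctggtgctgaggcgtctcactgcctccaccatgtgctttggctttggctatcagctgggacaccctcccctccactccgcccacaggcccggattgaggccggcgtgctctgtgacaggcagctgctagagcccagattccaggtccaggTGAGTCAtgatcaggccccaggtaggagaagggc
IL6: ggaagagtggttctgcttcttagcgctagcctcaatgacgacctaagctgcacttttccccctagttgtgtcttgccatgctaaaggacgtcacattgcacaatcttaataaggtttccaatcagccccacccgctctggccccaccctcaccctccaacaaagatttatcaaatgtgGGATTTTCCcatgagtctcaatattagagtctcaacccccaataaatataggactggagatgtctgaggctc
Over all 35116 RefSeq windows of this length, 6.57% held the AP-1 letters and 1.45% the κB letters. RefSeq windows matched 1504 of the 2005 genes called higher and 1474 of the 2071 called lower. Of the windows of genes called higher, 5.32% held the AP-1 letters, against 5.48% for genes called lower and 4.79% for all tested genes, and the κB letters were held by 1.83%, 2.24% and 1.58%. A match describes letters in the window and no binding was measured.

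Few genes closed the whole distance to the Hodgkin lines. Of 560 genes that untreated Reh held at least 1 below all 6 Hodgkin libraries on the log2 scale, both treated libraries stayed below all 6 for 495 (88.4%). The treated libraries lay above all 6 for 10 genes (1.79%), and for the remaining 55 (9.82%) they overlapped with the Hodgkin range, neither both below nor both above it. These 55 are called inside the range here, although 1 treated library was still below it for 18 of them and 1 was above it for 6. In the other direction, of 792 genes that untreated Reh held at least 1 above all 6, 660 (83.3%) were still above after PMA, 130 (16.4%) came inside the range, and 2 (0.253%) lay below all 6. These 2 genes, TRABD and USP49, were named after their values were seen. These counts describe positions and carry no test, and they move with the margin and with the libraries included. The genes above all 6 numbered 17 without the first untreated Reh library and 25 to 27 without 1 of the Hodgkin lines, and those still below numbered 814 without KM-H2. With any margin in place of 1, the genes that started below all 6 numbered 1565 still below, 706 inside and 152 above.

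The 12 genes with the largest rise among those that entered or passed the range were RGS1, BCL2A1, LINC00152, EHD4, ID2, RPSAP58, FHOD1, DUSP5, RGS2, PPP1R15A, DUSP10 and RALB. RGS1, a brake on G-protein signalling in B cells, was at 303 and 356 FPKM in Reh+PMA, 0.829 and 0.425 in untreated Reh, and 57.0 to 337 in the Hodgkin libraries (median 135). It thus stood at the upper edge of the Hodgkin range, with 1 treated library above the highest Hodgkin library. BCL2A1 (chr15:80253234-80263538, hg19), a survival factor of the BCL2 family, was at 139 and 73.7 FPKM in Reh+PMA, 0 and 0.149 in untreated Reh, and 16.4 to 179 in the Hodgkin libraries (median 41.2). ID2 (chr2:8818975-8824591, hg19), an inhibitor of the E proteins that drive B-cell genes, was at 246 and 333 FPKM in Reh+PMA, 8.48 and 10.3 in untreated Reh, and 42.1 to 202 in the Hodgkin libraries (median 84.0).

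Of these 12, 6 lay above all 6 Hodgkin libraries and were called higher, namely EHD4, ID2, FHOD1, DUSP5, RGS2 and DUSP10. Their differences were 1.49 to 2.37, far smaller than those of the genes with the widest gaps, and none of the 6 was called with the line as a block (adjusted p 0.0880 to 0.403). EHD4, an endocytic traffic protein, was at 84.9 and 58.4 FPKM against 7.10 to 26.5, and FHOD1, an actin regulator, at 87.9 and 107 against 8.74 to 42.5. The other 4 of the 10 genes above all 6 were EMP3, EMC7, RAB1A and STX1A. RALB, a Ras-like GTPase, entered the range at its lower end, with 35.6 and 26.8 FPKM against 11.01 and 23.4 in KM-H2 but 269 to 407 in L1236 and L428. RPSAP58, a pseudogene, and LINC00152, which has a near-identical copy, may carry reads of their relatives. RPSAP58 moreover split by library within the Hodgkin lines, with 17.1 to 21.7 FPKM in the first and 86.7 to 444.7 in the second libraries.

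**Figure D4:**
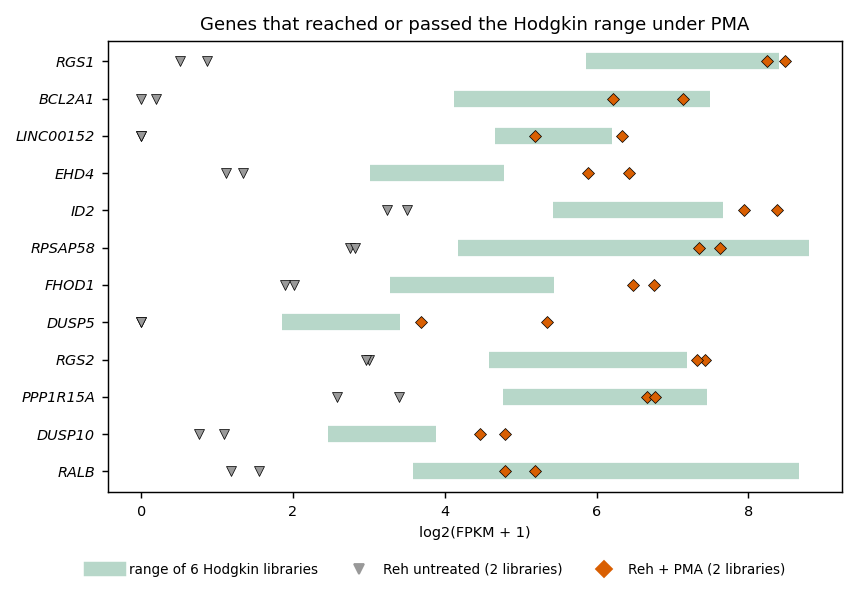
For the 12 genes with the largest rise into or past the Hodgkin range, bars span the 6 Hodgkin libraries, grey triangles are the 2 untreated Reh libraries and orange diamonds the 2 Reh+PMA libraries, all on a log2(FPKM + 1) x axis. Every grey pair lies left of its bar, and for EHD4, ID2, FHOD1, DUSP5, RGS2 and DUSP10 both diamonds lie to the right of it.

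Most genes by which HRS cells are recognised were still lower in Reh+PMA. Of 31 tested Hodgkin cell markers and products, 2 were higher in Reh+PMA (CSF1R and ID2) and 20 lower, with a median difference of -2.87, against 13.7% and 14.1% of all tested genes. With the line as a block 1 and 14 were called, against 4.83% and 3.03%. Some of these genes were already tied to cHL, such as CSF1R, which came from the authors' earlier work. The paper chose WNT5A and TNFRSF11A among genes transcribed from long terminal repeats in these lines because a rise in cHL had been reported. The list is therefore not independent evidence of its direction. Of the 23 that untreated Reh held at least 1 below all 6 Hodgkin libraries, 17 stayed below, 5 came inside the range and 1 passed it, where 88.4% of all 560 such genes stayed below. MSC, the E-protein inhibitor known as ABF-1, was listed at 0 in every Reh library and lay between 16.9 and 101 FPKM in the Hodgkin lines. The co-stimulatory ligand CD80 was listed at 0 in Reh+PMA against 6.03 to 67.1 FPKM, and CD86 was at 0.0525 and 0.120 against 8.02 to 101. PDCD1LG2, a ligand of PD-1, was listed at 0 against 4.94 to 55.6 FPKM, and CD274, the other PD-1 ligand, was at 0.213 and 0.348 against 2.48 to 33.1, a call lost with the line as a block (adjusted p = 0.103). GATA3, a T-cell transcription factor found in HRS cells, was at 0.179 and 0.232 FPKM against 3.54 to 28.4. IRF5 was at 0.482 and 0.431 FPKM against 12.7 to 114 and was lower than in untreated Reh, which held 2.87 and 2.28.

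The markers that did come inside the range were CD40, LTA, LGALS1, TNFRSF9 and TRAF1. CD40, a receptor for T-cell help, was at 54.4 and 64.4 FPKM in Reh+PMA, 3.57 and 5.08 in untreated Reh, and 18.9 to 147 in the Hodgkin libraries. TRAF1, an adaptor of CD30 and CD40, was at 18.5 and 14.8 FPKM after 1.02 and 0.804, against 10.5 to 111. LGALS1, galectin-1, was at 516 and 139.5 FPKM after 36.7 and 20.7, against 170.6 to 910.5, so that its second treated library lay just under the range. TNFRSF9, another receptor of the TNF family, was at 2.95 and 7.69 FPKM after a listed 0, against 2.64 to 23.4.

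CSF1R (chr5:149432854-149492935, hg19), the receptor for CSF1, was at 11.8 and 11.2 FPKM in Reh+PMA. The Hodgkin libraries held 1.13 and 2.05 in KM-H2, 0.463 and 0.246 in L1236 and 1.10 and 0.665 in L428, and untreated Reh held 0.285 and 0.202. Reh+PMA was therefore above every Hodgkin library, with a gap of 1.99 to the nearest on the log2 scale, and it differed from the mean of the Hodgkin lines by 2.74 ± 0.17 (SE; adjusted p 1.54e-06, or 0.00411 with the line as a block). Gene-level FPKM does not separate transcripts that start in the upstream long terminal repeat from those of other promoters. The ligand CSF1 was at 1.49 and 0.748 FPKM in Reh+PMA against 5.99 to 51.8 in the Hodgkin lines. CBFA2T3, which encodes the co-repressor ETO2, fell from 6.68 and 4.43 FPKM in untreated Reh to 0.825 and 0.475 in Reh+PMA (limma, adjusted p 0.000122). Both treated values lay just above the Hodgkin range of 0 to 0.457, and the difference of 0.56 ± 0.15 (SE) was too small to be called.

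More B-cell identity genes were called higher than lower. Of 27 tested B-lineage genes, 12 were higher in Reh+PMA (among them BTK, CD22, CD24, CD79A, CD79B, EBF1, FOXO1, POU2F2, SPI1, SPIB and SYK) and 4 lower (BCL11A, IKZF1, IKZF3 and LYN), with a median difference of 1.17, where all tested genes gave 13.7% and 14.1%. With the line as a block 8 and 2 were called, against 4.83% and 3.03%. Against untreated Reh, 13 of the 27 were lower and 2 higher, where 11.8% of all tested genes were lower and 10.5% higher. CD79B, the partner of CD79A, was at 39.0 and 86.2 FPKM in Reh+PMA, 394 and 414 in untreated Reh, and 0 to 0.592 in the Hodgkin libraries. CD79B had thus fallen against untreated Reh, and it was still 5.64 ± 0.29 (SE; adjusted p 5.28e-07) above the Hodgkin lines. EBF1, a master factor of early B cells, was at 24.4 and 15.01 FPKM in Reh+PMA, 82.9 and 66.2 in untreated Reh, and 0 to 3.01 in the Hodgkin libraries. SPI1, which encodes PU.1, was at 14.9 and 13.9 FPKM and listed at 0 in all 6 Hodgkin libraries.

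For other B-lineage genes the position against the Hodgkin range had changed or the groups overlapped. BLNK, the adaptor of the B-cell receptor, was at 1.68 and 1.90 FPKM in Reh+PMA after 67.4 and 63.0 in untreated Reh, and the Hodgkin libraries held 0 to 6.93. PAX5, the B-cell commitment factor, was at 11.3 and 17.4 FPKM after 64.1 and 52.5, and lay inside the Hodgkin range, where L1236 held 33.8 and 19.8 while KM-H2 and L428 held at most 1.84. IKZF1, the lymphoid factor Ikaros, was at 9.20 and 13.02 FPKM after 81.7 and 92.7, and so had moved from inside to below the Hodgkin range of 26.2 to 126, with a difference of -2.49 ± 0.24 (SE; adjusted p 2.59e-05).

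Many markers of the precursor stage were also above the Hodgkin range, and all of those called were higher. Of 16 tested B-precursor genes, 10 were higher in Reh+PMA than in the Hodgkin lines and 0 lower, with a median difference of 2.72, and the same counts were called with the line as a block. Of all tested genes 13.7% were higher, or 4.83% with the block. At the same time 11 of the 16 were lower than in untreated Reh, against 11.8% of all tested genes, with a median change of -2.76, and 2 were higher. The 2 were CD9, a tetraspanin, at 69.8 and 42.2 FPKM after 3.76 and 2.94, and SOX4, a transcription factor, at 100.5 and 133 FPKM after 59.7 and 49.8. RAG1, a recombinase subunit, was at 5.09 and 11.9 FPKM in Reh+PMA, 435 and 384 in untreated Reh, and 0.0412 to 0.489 in the Hodgkin libraries. ERG, an ETS factor of precursors, was at 3.63 and 3.25 FPKM after 145 and 108, against 0 to 0.121. DNTT, the terminal transferase, was at 75.0 and 41.6 FPKM against 87.9 and 103 in untreated Reh, and was listed at 0 in all 6 Hodgkin libraries. The summed FPKM of the 18 listed precursor genes was 405.7 to 406.8 in Reh+PMA, 1971 to 2224 in untreated Reh, and 38.9 to 88.2 in the Hodgkin libraries.

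**Figure D5:**
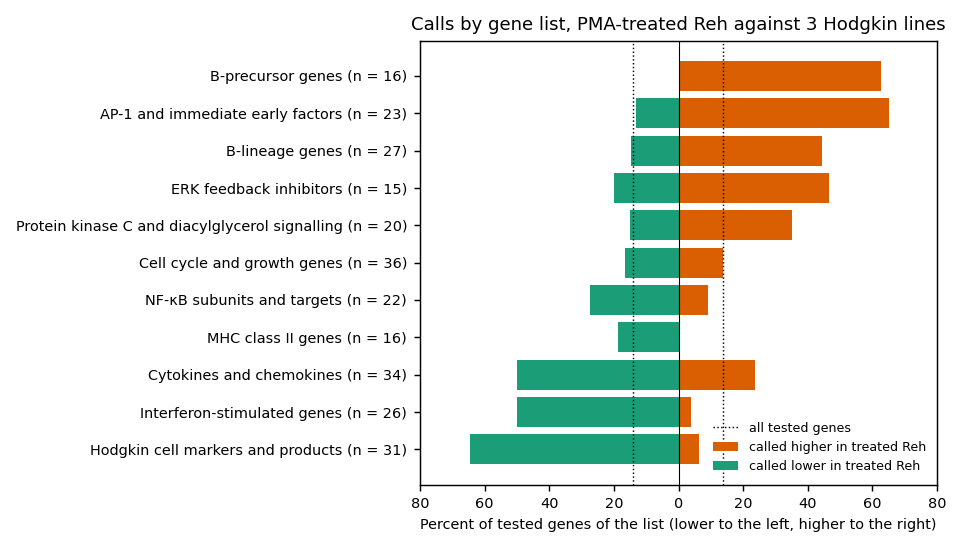
Bars give the percentage of tested genes of each list called higher (orange, right) or lower (green, left) in Reh+PMA than in the Hodgkin lines, with the number tested beside the name. Dotted lines mark all tested genes, 13.7% higher and 14.1% lower, and the precursor genes and the AP-1 factors lie farthest to the right, the Hodgkin markers farthest to the left.

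Interferon-stimulated genes were lower than in the Hodgkin lines or not called, with IRF7 as the exception. Of 26 tested, 13 were lower and 1 higher, with a median difference of -1.48, against 14.1% and 13.7% of all tested genes. The line block left 4 and 0, against 3.03% and 4.83%. USP18, which removes ISG15 from proteins, was at 0.661 and 0.954 FPKM after 7.56 and 9.21, against 11.1 to 19.8. None of the 26 was higher than in untreated Reh by limma, and 10 were lower, where 10.5% of all tested genes were higher and 11.8% lower.

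Of 16 tested MHC class II genes 3 were lower (HLA-DMB, HLA-DQA1 and RFX5) and 0 higher, where 14.1% of all tested genes were lower and 13.7% higher. The median difference was -0.41. With the line as a block HLA-DQA1 alone was called, as lower, where 3.03% of all tested genes were lower and 4.83% higher. HLA-DRA was at 863 and 820.1 FPKM in Reh+PMA against 264 to 1020 in the Hodgkin libraries. HLA-DQA1 was at 0.0474 and 0.0448 FPKM against 4.76 to 84.7, and was listed at 0 in untreated Reh. Reads of these polymorphic genes and their near copies may be assigned unequally between lines. CIITA, their activator, was at 3.03 and 9.07 FPKM after 21.1 and 15.4, against 8.77 to 40.1, with 1 treated library under the range.

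Against the Hodgkin lines, cell cycle genes were near the all-gene background of 13.7% higher and 14.1% lower. Of 36 tested, 5 were higher (CCND1, CDK6, CDKN1A, CDKN1C and CDKN2D) and 6 lower (CCND2, CCNE1, CDK4, CDKN2B, E2F1 and MCM3), a balance that turned to 7 and 5 after median centring. With the line as a block 3 higher (CDK6, CDKN1A and CDKN1C) and 1 lower (CCND2) were called, against 4.83% and 3.03% of all tested genes. Against untreated Reh, 13 of the 36 were lower and 4 higher by limma, where 11.8% of all tested genes were lower and 10.5% higher. CDKN1A, the inhibitor p21, was at 328 and 285.5 FPKM in Reh+PMA, 35.9 and 74.1 in untreated Reh, and 2.202 to 49.8 in the Hodgkin libraries. CCND2, cyclin D2, was at 4.40 and 3.41 FPKM against 62.5 to 246.5, with a difference of -4.59 ± 0.28 (SE; adjusted p 1.41e-06). CCND3, cyclin D3, came down to 14.2 and 16.6 FPKM from 257 and 217.5 in untreated Reh, inside the Hodgkin range of 11.3 to 28.3. MYC was at 21.1 and 47.8 FPKM after 147 and 140.1, against 14.0 to 84.1.

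Markers of other cell types were mostly low, and their part in the results was not tested. The 12 T-cell markers summed to 9.96 to 22.3 FPKM in Reh+PMA and 0.549 to 35.7 in the Hodgkin libraries, where the upper end was KM-H2 with its CD3D at 13.5 and 22.5. In Reh+PMA CD3D, CD3E and CD3G were listed at 0, and 3 of 6 tested markers (BCL11B, CD247 and LCK) were called higher, of which BCL11B alone was called with the line as a block, where 13.7% and 4.83% of all tested genes were higher. The 14 monocyte markers summed to 23.3 to 27.1 FPKM in Reh+PMA and 1.38 to 30.5 in the Hodgkin libraries. S100A8 and S100A9 were listed at 0 in Reh+PMA, CD14 was at 0.0478 and 0.0452, and of 6 tested monocyte markers CSF1R alone was called. The 9 epithelial and erythroid markers summed to 0.0509 FPKM or less in Reh+PMA.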

How the data were processed

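Gene-level FPKM of 12 RNA-Seq libraries, 2 per group, were taken as deposited. The authors made these FPKM values with TopHat2 2.0.11 and Cuffnorm 2.2.1 on hg19, as named in the submitters' processing notes; whether counting used strand and which annotation was used are not given in the sources used here. FPKM holds no read depth, so depth is unknown and no counting interval is given. Genes at 1 FPKM or more in at least 2 of the 12 libraries were kept (14679 of 26210). Values were transformed to log2(FPKM + 1), which understates changes of low genes.

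Group means were fitted over all 12 libraries with limma 3.58.1 in R 4.3.3 (empirical Bayes with trend, 6 residual degrees of freedom, two-sided, Benjamini-Hochberg adjusted over all tested genes). Reh+PMA was set against the mean of the 3 Hodgkin coefficients. A call needed an adjusted p under 0.05, a difference of at least 1 and both treated libraries beyond all 6 Hodgkin libraries. In the alternative with the line as a random block, each line and treatment was a block of its own, so untreated Reh and Reh+PMA were separate blocks. The consensus correlation, shared by all genes, was 0.709. Library indices in the columns were not tied to GEO replicate numbers, so first and second library are names only. The scripts were tested on simulated data.

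Named were, per direction, the 15 called genes with the widest gap between nearest treated and Hodgkin libraries, the 12 with the largest rise over untreated Reh among genes that entered or passed the Hodgkin range from at least 1 below it, and genes of 14 lists. Small non-coding RNAs, histone genes, immunoglobulin and T-cell receptor segments and sex-linked markers were left out of the names. Other genes named were chosen after their values were seen, namely those at the edge of the position rule and those in small counts. Members and lists were chosen with earlier results of these data known. Gene positions are GENCODE v44lift37 on hg19, promoters RefSeq on GRCh38.p14. Alternatives were another pseudocount, other filters and scalings, the 8 libraries alone, the line block, a replicate block, and leaving out lines or single libraries.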

Additional observations from a re-analysis of the deposited data

Results flagged for a closer look

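For 2 Hodgkin markers the distance of Reh+PMA from the Hodgkin lines differed in sign between lines, and the difference itself was tested with limma. NFIX was higher in Reh+PMA than in L428 by 1.27 and lower than in L1236 (-2.06), a difference of 3.33 on the log2 scale (Benjamini-Hochberg adjusted p 2.63e-05). CD40 was higher in Reh+PMA than in L428 by 1.33 and lower than in L1236 (-1.26), a difference of 2.59 (adjusted p 3.37e-05). Both comparisons share the Reh+PMA libraries, so each difference is that between L1236 and L428.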

How the results depend on the processing

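Treating the line as a random block left 709 genes higher and 445 lower. All other alternatives kept both counts within 1.5 times, at 1847 to 2322 higher and 1734 to 2802 lower. Leaving out single libraries gave 1882 to 2128 higher and 1931 to 2227 lower. Quantile normalization gave 2082 higher and 1734 lower, and median centring 2254 and 1751. Of genes that untreated Reh held at least 1 below all 6 Hodgkin libraries, a pseudocount of 0.1 left 787 below and 105 inside the range, quantile normalization 6 above, and any margin in place of 1 left 1565 below, 706 inside and 152 above, with 1525 still above from the other side. Without KM-H2, 814 stayed below and 25 passed above; 27 passed without L1236 and 25 without L428. Leaving out single libraries gave 500 to 554 below, 41 to 80 inside, 10 to 17 above and 680 to 736 still above; the 17 came without the first untreated Reh library. The LINC00152 difference ranged from -0.0484, without the first Reh+PMA library, to 1.11 without the second, and that of RPSAP58 was -0.42 with the second Hodgkin libraries alone, a setting chosen after seeing the data. The causes were not tested.

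The replicate block gave 2014 genes higher and 2089 lower. Same-numbered libraries deviated together among the Hodgkin lines (correlations 0.301 to 0.681) but hardly between them and Reh+PMA (0.0294 to 0.0977), so the numbers were not taken to pair the groups compared. Read depth is unknown, so FPKM gives no precision for low genes.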
